A study of Mus musculus with 18 samples.

Results

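The 10 genes described here encode secreted glycoproteins of the extracellular matrix that bind cells: the thrombospondins *Thbs1*, *Thbs2*, *Thbs3* and *Thbs4*, the tenascins *Tnc* and *Tnn*, periostin (*Postn*), fibronectin (*Fn1*) and the spondins *Spon1* and *Spon2*. They were taken by symbol from count tables that hold 20200 symbols in all, 15853 of them in every table, and all 10 were found and passed the filter on low counts in every comparison. RNA sequencing covered 6 mouse cell populations, with 3 libraries each. Bone GFP+ (hi) cells were sorted without culture from long bones of Col2.3GFP mice, whose green fluorescent protein is driven by a fragment of the *Col1a1* promoter, and were set against GFP- cells of the same tissue. Bone chip GFP+ (hi) cells came from cultures of bone pieces of such mice under osteogenic differentiation, and were set against the GFP- cells of those cultures. ESC-OB GFP+ cells, which were sorted for bright GFP after osteogenic differentiation of mouse embryonic stem cells (ESC) carrying the transgene, were set against ESC. A label also gives the ESC an osteogenic treatment. Their titles and the study's description present them as undifferentiated, and they are treated so here. Age and sex of the animals and time in culture are not given in the sources used here, and the GFP- populations are labelled as heterogeneous.

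Proteins of this kind are often called matricellular: they sit in the matrix and tune how cells attach, migrate and receive growth factor signals. Thrombospondins 1 and 2 are trimers that restrain blood vessel growth, bind the receptors CD36 and CD47, and, for thrombospondin 1, can activate latent TGF-β. Thrombospondins 3 and 4 are pentamers related to the cartilage protein COMP. Tenascin C and tenascin W (*Tnn*) are large multimeric proteins of developing and healing skeletal tissue, periostin is named after the periosteum and helps cross-link collagen, fibronectin builds the early fibrils on which collagen is laid down, and spondins are secreted proteins with thrombospondin type 1 repeats.

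CPM below are counts per 1e6 counts of a library after scaling by TMM factors, and are comparable between libraries of a source. Total counts were 4920977 to 43874837 per library, so a level of 1 CPM stood for 4.78 to 31.2 counts. Genes were called at an adjusted p under 0.05 (edgeR's quasi-likelihood test, Benjamini-Hochberg over all genes tested). The labelled populations matched their markers in part. All 6 osteoblast markers rose in bone GFP+ (hi) cells (5 on total counts, without TMM factors) and in bone chip GFP+ (hi) cells, and of the 4 tested in ESC-OB 3 rose and 1 fell in GFP+ cells (*Alpl*, 36.9 CPM in ESC-OB GFP+ cells and 313 CPM in ESC). All 7 chondrocyte markers fell in bone GFP+ (hi) cells, with a summed level of 1709 to 4202 CPM, against 94710 to 193600 CPM in bone GFP- cells. Summed over the 6 pluripotency markers, bone GFP+ (hi) cells had 19.9 to 25.7 CPM, bone GFP- cells 0.114 to 0.467 CPM and ESC 5229 to 6134 CPM. Macrophage markers ranged over 309 to 3614 CPM among the bone chip GFP- libraries. *Ddx3y*, on chromosome Y, had 6, 516 and 5 counts in bone GFP+ (hi) libraries 1, 2 and 3, against 535, 882 and 379 counts in the bone GFP- libraries, so the GFP contrast in bone and a difference in the sex of the animals cannot be told apart in full. The counts of ESC replicates 2 and 3 differed little more than by sampling (chi-square of 1.68 per degree of freedom, against 13.6 and 17.2 for the other ESC pairs), and the member calls in ESC-OB were the same counts, 9 higher and 1 lower, with these libraries summed into 1. The labels do not say that replicates came from separate animals or cultures, so p-values measure the spread between these libraries, which may be technical.

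Promoters of 3 of the genes are shown, because *Tnc* was the member called higher in every source, *Thbs3* had the largest fall of the members in bone, and *Postn* was called in bone chips and ESC-OB but not in bone. Each is the RefSeq window of 250 bases before and 50 bases after an annotated start (build GRCm38.p6), written 5′ to 3′ on the strand of the gene. Capitals mark matches to the TATA box sequence, searched as TATAAA, to the core bound by RUNX proteins, searched as TGTGGT, or to the core bound by SP proteins, searched as GGGCGG. Only exact runs were marked, at any distance from the start. Both strands were searched, and the matches do not overlap one another.
Tnc, chr4:64046887-64047186, minus strand: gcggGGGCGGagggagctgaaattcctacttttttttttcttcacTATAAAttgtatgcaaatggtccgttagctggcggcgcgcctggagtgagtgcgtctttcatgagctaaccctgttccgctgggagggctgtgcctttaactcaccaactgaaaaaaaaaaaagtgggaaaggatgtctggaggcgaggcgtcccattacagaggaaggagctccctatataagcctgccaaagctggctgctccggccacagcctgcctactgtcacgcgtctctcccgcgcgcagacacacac
Thbs3, chr3:89214930-89215229, plus strand: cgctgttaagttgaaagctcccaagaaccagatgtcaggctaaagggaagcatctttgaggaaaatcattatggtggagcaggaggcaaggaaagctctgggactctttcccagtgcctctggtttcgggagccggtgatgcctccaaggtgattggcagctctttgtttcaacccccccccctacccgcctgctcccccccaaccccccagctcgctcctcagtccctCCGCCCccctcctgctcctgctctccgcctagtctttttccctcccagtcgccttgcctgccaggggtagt
Postn, chr3:54360857-54361156, plus strand: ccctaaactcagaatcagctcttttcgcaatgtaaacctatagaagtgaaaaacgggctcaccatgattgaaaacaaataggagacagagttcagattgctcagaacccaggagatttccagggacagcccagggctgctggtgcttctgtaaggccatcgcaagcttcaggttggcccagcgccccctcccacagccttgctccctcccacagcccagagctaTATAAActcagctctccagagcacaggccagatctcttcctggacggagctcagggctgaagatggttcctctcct
The 6 members matched have 8 windows, which include 2 overlapping windows of *Tnc* and 2 separate ones of *Postn*. The run TATAAA was found in 4 of the 8 windows, of 3 members, against 13.6% of all 32851 promoter windows of that length. The run GGGCGG was found in 4 of the 8, against 35.7% of all windows, and TGTGGT in 0 of the 8, against 16.8%. The overlapping windows of *Tnc* hold the same TATAAA run and the same GGGCGG run, each counted in both windows. Of the TATAAA runs, that of *Postn* lay nearest to its start, and those of *Tnc* and *Thbs2* lay further upstream. Whether any of them acts as a TATA box was not tested. *Thbs1*, *Fn1*, *Spon1* and *Spon2* were not matched. A match is a run of letters, not a measured site.

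Across the sources the 10 genes did not move as a block. In bone, 2 were higher in GFP+ (hi) cells (19.5% of all 12559 genes tested were), 4 were lower (22.1% of all genes) and 4 were not called. In bone chips, 4 were higher (20.4% of 12841 genes), 3 were lower (23.1%) and 3 were not called. In ESC-OB, 9 were higher in GFP+ cells (43% of 15416 genes) and 1 was lower (34.7%). In either direction, 6 members were called in bone (41.6% of all genes), 7 in bone chips (43.5%) and 10 in ESC-OB (77.7%). The libraries of the groups did not overlap for 6 members in bone (55.9% of all genes), 8 in bone chips (56.1%) and 10 in ESC-OB (81.6%). No difference between these counts and the shares of all genes was tested. The median log2 fold change of the members was -0.10 in bone (all genes tested, -0.0013), 0.31 in bone chips (all genes, -0.043) and 6.96 in ESC-OB with *Tnn* at its lower bound (all genes, 0.22). Of the 10 genes, 1 was called higher in every source (4.82% of the 11623 genes tested in all 3 were), and 6 were called higher in at least 1 source and lower in at least 1 other (25.7% of those genes). Markers of other cell types also rose in ESC-OB GFP+ cells. All 7 tendon and fibroblast markers rose, with a summed level of 319.5 to 382 CPM in ESC-OB GFP+ cells, against 4.19 to 6.81 CPM in ESC, where *Tnmd* was at 0. All 4 smooth muscle markers rose (376 to 1172 CPM in ESC-OB GFP+ cells, 1.10 to 2.51 CPM in ESC). The 3 macrophage markers tested of 5 rose (sum of the 5, 77.0 to 112.5 CPM in ESC-OB GFP+ cells, 15.1 to 19.3 CPM in ESC, where *Emr1* and *Lyz2* were at 0), and of 4 epithelial markers 3 rose and 1 fell (1003 to 2378 CPM in ESC-OB GFP+ cells, 423 to 558 CPM in ESC, where *Krt6a* was at 0). Their part in the rise of the members was not tested.

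**Figure D1:**
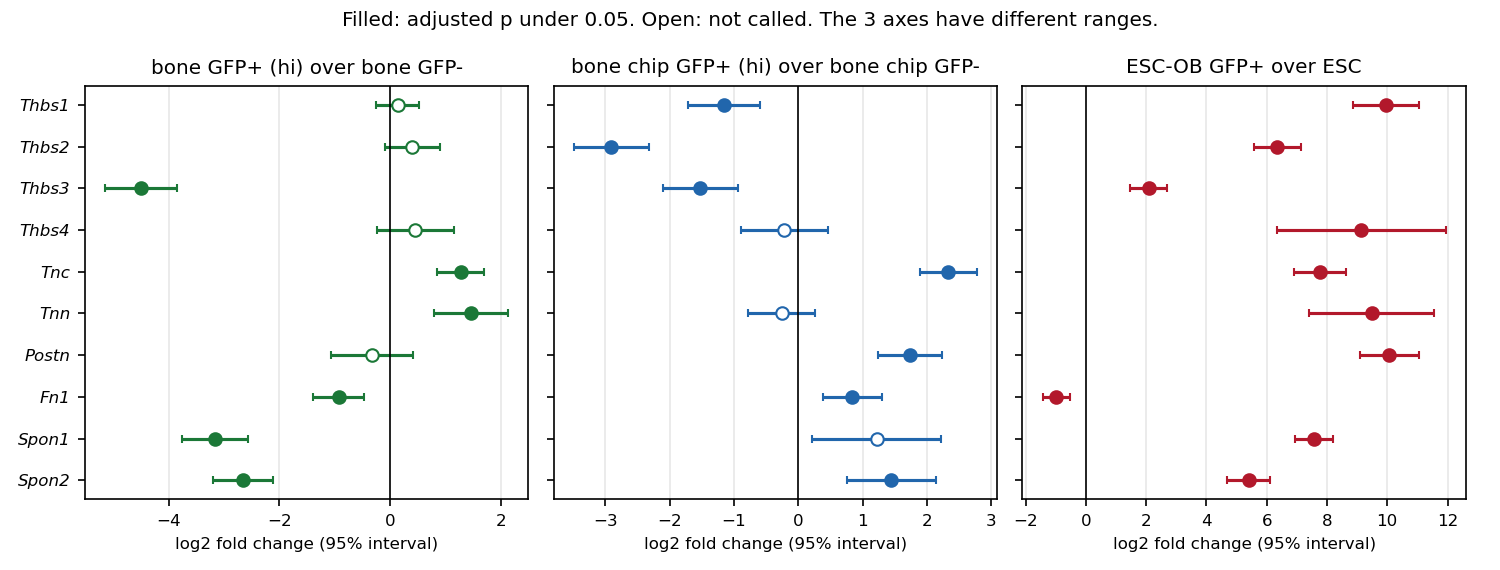
Log2 fold change of each gene (rows) in bone, bone chips and ESC-OB (panels from left to right), as GFP+ over GFP- or ESC, with 95% intervals, 3 libraries per group and x axes of different range. Filled points have an adjusted p under 0.05. *Tnc* is filled and right of 0 in every panel, and *Fn1* is left of 0 in bone (-0.93) and ESC-OB (-0.99) and right of it in bone chips (0.84).

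*Thbs1*, the trimeric thrombospondin that activates latent TGF-β (chromosome 2, 117937612 to 117952869, plus strand, NCBI Build 37), was abundant in every population except ESC. In bone it had 962, 1203 and 1041 CPM in GFP+ (hi) cells, against 1074, 827 and 1016 CPM in GFP- cells. The groups overlapped, and the log2 fold change of 0.14 (SE 0.17, adjusted p = 0.555) was not called. When total counts replaced the TMM factors it was called lower (-0.91, adjusted p = 0.0015). The chip cultures had 3108, 2087 and 3592 CPM in GFP+ (hi) cells, against 7836, 5583 and 6182 CPM in GFP- cells. Every GFP+ (hi) library was below every GFP- library, and *Thbs1* fell 2.23-fold (log2 fold change -1.16, SE 0.24, adjusted p = 0.0071). ESC-OB GFP+ cells had 728, 1657 and 1980 CPM, against 1.10, 1.44 and 1.88 CPM in ESC, and *Thbs1* rose by 9.96 on the log2 scale (SE 0.49, adjusted p = 3.6e-08). The level in ESC rested on 6 to 26 counts per library.

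*Thbs2*, the other trimeric member and a regulator of collagen fibril assembly (chromosome 17, 14802507 to 14831269, minus strand), separated the GFP populations of bone chips more widely. It had 246, 234 and 339 CPM in bone chip GFP+ (hi) cells, against 2386, 1467 and 2289 CPM in bone chip GFP- cells. That is a 7.50-fold fall (log2 fold change -2.91, SE 0.25, adjusted p = 1.6e-04). Fresh bone did not show it: there were 269, 365 and 198 CPM in GFP+ (hi) cells and 182, 235 and 213 CPM in GFP- cells, which overlapped. The log2 fold change in bone was 0.40 (SE 0.22, adjusted p = 0.178), and the call turned with the setting. On total counts *Thbs2* was called lower (-0.66, adjusted p = 0.035), and without GFP+ (hi) replicate 3 it was called higher (0.60, adjusted p = 0.030). Without both GFP+ (hi) libraries low in chromosome Y transcripts the value was 0.81 (adjusted p = 0.039). That setting leaves 1 GFP+ (hi) library in bone, so the spread came from the GFP- libraries and the remaining library was assumed to vary like them. In ESC-OB GFP+ cells it had 112, 180 and 189 CPM, against 0.737, 2.50 and 2.09 CPM in ESC, and rose by 6.35 on the log2 scale (SE 0.35, adjusted p = 7.4e-08). Fibroblast and tendon markers moved in the same direction as *Thbs2* in the chips. Their 7 genes summed to 137 to 153 CPM in bone chip GFP+ (hi) cells and 322 to 588 CPM in bone chip GFP- cells, and of the 6 tested 4 fell and 1 rose. Other lists also held markers that fell there. All 3 smooth muscle markers tested fell, with a sum of 48.2 to 73.8 CPM in GFP+ (hi) and 152 to 278 CPM in GFP- cells. Of 7 chondrocyte markers 3 fell and 1 rose, and their sums overlapped (5441 to 7372 CPM in GFP+ (hi) and 3945 to 7551 CPM in GFP- cells). The part of these cell types in the *Thbs2* result was not tested, and in bulk samples fewer cells of a type and less RNA per cell cannot be told apart.

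*Thbs3*, a pentameric thrombospondin of cartilage and bone (chromosome 3, 89019102 to 89030759, plus strand), had the largest difference of the members in bone. It had 23.0, 22.7 and 10.9 CPM in bone GFP+ (hi) cells, against 429, 439 and 411 CPM in bone GFP- cells. The 22.6-fold fall (log2 fold change -4.50, SE 0.29, adjusted p = 3.4e-06) held in all alternatives run, from -5.55 to -4.22. The cartilage relative *Comp* fell in the same comparison, to a mean of 290.5 CPM in GFP+ (hi) cells, against 5481 CPM in GFP- cells (log2 fold change -4.24, SE 0.52, adjusted p = 1.8e-04), and so did all 7 chondrocyte markers. The part of cartilage cells in these differences was not tested. In bone chips *Thbs3* was scarce, with 3.03, 2.99 and 3.43 CPM in GFP+ (hi) cells, against 10.1, 6.15 and 10.9 CPM in GFP- cells (log2 fold change -1.52, SE 0.24, adjusted p = 0.0026). In ESC-OB GFP+ cells it had 13.8, 17.7 and 17.8 CPM, against 3.87, 4.55 and 2.93 CPM in ESC (log2 fold change 2.08, SE 0.28, adjusted p = 5.2e-05). In the annotation, 318 bases (6.59%) of the *Thbs3* exons overlap *Mtx1* on the other strand, and the strand setting of the counting is not given. *Mtx1* itself had 325 to 734 counts in bone GFP+ (hi) libraries and 244 to 319 in bone GFP- libraries and was not called in bone (log2 fold change -0.42, adjusted p = 0.067), while *Thbs3* had 227 to 718 counts in bone GFP+ (hi) and 3516 to 3903 counts in bone GFP- libraries. In bone chips *Mtx1* had 155 to 219 counts in GFP+ (hi) and 173 to 311 counts in GFP- libraries, and *Thbs3* had 32 to 43 counts in GFP+ (hi) and 97 to 236 counts in GFP- libraries.

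*Thbs4*, the pentameric thrombospondin of tendon and muscle (chromosome 13, 93521545 to 93564773, minus strand), was called in neither bone source with TMM factors. It had 142, 202 and 97.5 CPM in bone GFP+ (hi) cells and 84.6, 82.5 and 155 CPM in bone GFP- cells. The log2 fold change was 0.45 (95% interval -0.24 to 1.15, adjusted p = 0.270), and -0.58 on total counts. Bone chips had 95.8, 56.8 and 75.2 CPM in GFP+ (hi) cells and 124, 75.7 and 65.0 CPM in GFP- cells, a log2 fold change of -0.22 (95% interval -0.89 to 0.46, adjusted p = 0.570). Without bone chip GFP- replicate 1 that value was 0.13, and on total counts it was called lower (-0.77, adjusted p = 0.030). In ESC-OB it was uneven among the GFP+ libraries, at 8.98, 97.2 and 26.5 CPM, against 2 counts in all 3 ESC libraries together. The ratio of the pooled counts was 568 (95% exact interval 157 to 4695, counting error only). In the edgeR fit *Thbs4* rose by 9.14 on the log2 scale (SE 1.27, adjusted p = 6.2e-05), and the value was 7.92 without ESC-OB GFP+ replicate 2 and 9.78 without ESC replicate 1.

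The make-up of the thrombospondin transcripts does not depend on how libraries are scaled. Counts per kilobase of the longest coding transcript were summed over the 4 genes, and the share of each was taken. *Thbs3* made up 1.40 to 2.76% of that sum in bone GFP+ (hi) cells, against 33.3 to 40.0% in bone GFP- cells. *Thbs2* made up 6.87 to 9.52% in bone chip GFP+ (hi) cells, against 20.2 to 26.3% in bone chip GFP- cells. *Thbs1* was the largest share in every population except ESC, with 60.9 to 72.6% in bone GFP+ (hi), 41.1 to 48.9% in bone GFP-, 86.0 to 88.2% in bone chip GFP+ (hi), 72.0 to 77.7% in bone chip GFP- and 81.0 to 88.1% in ESC-OB GFP+ cells. The sum in ESC was small, and *Thbs3* was 57.6 to 76.6% of it.

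**Figure D2:**
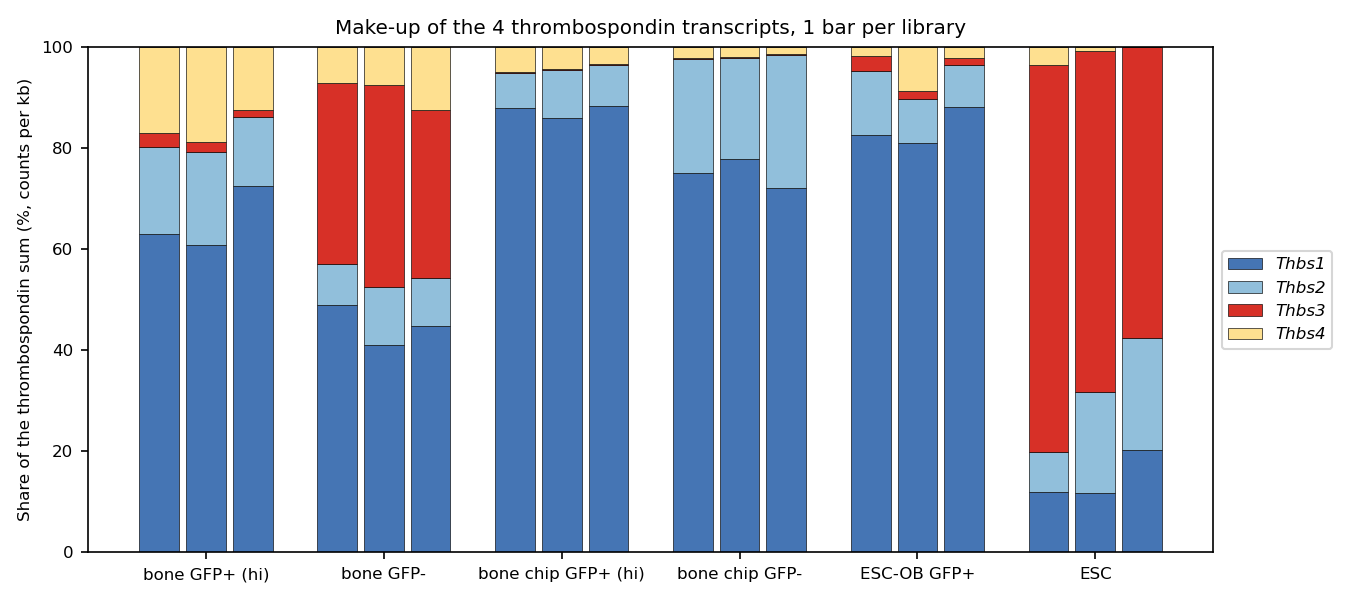
Share (%, y axis) of each thrombospondin in the sum of the 4, from counts per kilobase, with 1 bar per library and 3 bars per population. *Thbs3* takes 33.3 to 40.0% in bone GFP- libraries and at most 2.76% in bone GFP+ (hi) libraries, and *Thbs2* takes more in bone chip GFP- libraries than in bone chip GFP+ (hi) libraries.

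*Tnc*, tenascin C (chromosome 4, 63620819 to 63681760, minus strand), was the member higher in the GFP+ cells of all 3 sources. In the annotation 2.34% of its exon bases overlap a gene on the other strand. In bone it had 245, 291 and 192 CPM in GFP+ (hi) cells, against 85.4, 104 and 112 CPM in GFP- cells. The lowest GFP+ (hi) library was above the highest GFP- library, and *Tnc* rose 2.42-fold (log2 fold change 1.28, SE 0.19, adjusted p = 5.9e-04). The rise in bone depended on the scaling, with a log2 fold change of 0.22 (adjusted p = 0.358) on total counts. The chip cultures showed a wider gap, with 3543, 2425 and 3613 CPM in GFP+ (hi) cells, against 644, 567 and 691 CPM in GFP- cells. This 5.04-fold rise (log2 fold change 2.33, SE 0.19, adjusted p = 1.4e-04) was called in all alternatives run. ESC-OB GFP+ cells had 55.7, 75.2 and 74.1 CPM, against 0, 8 and 1 counts in the ESC libraries (log2 fold change 7.76, SE 0.39, adjusted p = 3.8e-08). Without ESC replicate 2, which held 8 of those counts, the value was 9.33. *Ptprz1*, a receptor tyrosine phosphatase that binds tenascin C, rose in both bone sources. Its mean was 25.5 CPM in bone GFP+ (hi) and 0.501 CPM in bone GFP- cells, and 1120 CPM in bone chip GFP+ (hi) and 29.1 CPM in bone chip GFP- cells. The integrin chains *Itga8* and *Itga9*, which bind tenascins, fell in both, with values given below. Another integrin chain, *Itgb3*, rose in bone chips (mean 65.5 CPM in GFP+ (hi) and 16.0 CPM in GFP- cells).

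*Tnn*, tenascin W, which is found in developing and mature bone (chromosome 1, 162015165 to 162083711, minus strand), rose in bone but stayed uncalled in bone chips with TMM factors. It had 113, 106 and 48.1 CPM in bone GFP+ (hi) cells, against 36.3, 27.8 and 32.8 CPM in bone GFP- cells (log2 fold change 1.46, SE 0.30, adjusted p = 0.0036). On total counts the value was 0.42 (adjusted p = 0.231). Its CPM in bone chips overlapped between the groups, with 509, 409 and 616 CPM in GFP+ (hi) cells and 652, 451 and 733 CPM in GFP- cells. The log2 fold change there was -0.26 (95% interval -0.78 to 0.26, adjusted p = 0.373), and on total counts it was called lower (-0.81, adjusted p = 0.0106). In ESC-OB GFP+ cells it had 163, 121 and 106 counts (5.63, 5.52 and 4.26 CPM), against 0 counts in every ESC library. Set against a floor of 3 counts over the ESC group, it was at least 48.5-fold higher. Of the tenascin pair, per kilobase, *Tnc* was 82.7 to 85.1% in bone chip GFP+ (hi) cells, against 43.5 to 50.7% in bone chip GFP- cells. In bone these shares overlapped, at 64.0 to 76.5% in GFP+ (hi) and 65.8 to 75.3% in GFP- cells.

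*Postn*, periostin (chromosome 3, 54165031 to 54194961, plus strand), was not called in bone, where it varied among libraries of both groups. It had 111, 72.6 and 42.6 CPM in bone GFP+ (hi) cells and 76.8, 77.2 and 130 CPM in bone GFP- cells. The log2 fold change was -0.33 (95% interval -1.07 to 0.42, adjusted p = 0.462), and it was called at -1.36 (adjusted p = 0.0050) on total counts. Among the chip libraries it had 635, 468 and 792 CPM in GFP+ (hi) cells, against 172, 178 and 219 CPM in GFP- cells. The libraries lay apart, and *Postn* rose 3.33-fold (log2 fold change 1.74, SE 0.21, adjusted p = 7.3e-04). ESC-OB GFP+ cells had 163, 274 and 160 CPM, against 2, 3 and 0 counts in the ESC libraries (log2 fold change 10.07, SE 0.45, adjusted p = 2.0e-08).

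*Fn1*, fibronectin (chromosome 1, 71632094 to 71699774, minus strand, 3.5% of its exon bases overlapping *Apol7d* on the other strand), was the member with the highest level per kilobase in both bone chip populations, in bone GFP- cells and in ESC, and moved in opposite directions in fresh bone and bone chips. In bone it had 1121, 1350 and 1100 CPM in GFP+ (hi) cells, against 2089, 1825 and 2872 CPM in GFP- cells. It fell 1.90-fold (log2 fold change -0.93, SE 0.21, adjusted p = 0.0056), and with bone GFP+ (hi) replicate 2 as the 1 library left of its group the value was -0.73 (SE 0.33, adjusted p = 0.138). Bone chip libraries had 37776, 38041 and 29720 CPM in GFP+ (hi) cells, against 22152, 16207 and 20580 CPM in GFP- cells. It rose 1.79-fold (log2 fold change 0.84, SE 0.20, adjusted p = 0.0124). That call was lost on total counts (0.29, adjusted p = 0.169) and without bone chip GFP+ (hi) replicate 1 (0.79, adjusted p = 0.058). As a share of all counts *Fn1* took 3.02, 3.25 and 2.45% in bone chip GFP+ (hi) cells and 2.59, 2.01 and 2.53% in bone chip GFP- cells, which overlap. In ESC-OB GFP+ cells it had 789, 1044 and 1130 CPM, against 2171, 2007 and 1688 CPM in ESC. *Fn1* was the 1 member that fell there, by 0.99 on the log2 scale (SE 0.20, adjusted p = 0.0011). In ESC it made up 98.9 to 99.1% of the sum of the 10 genes per kilobase, against 20.8 to 27.2% in ESC-OB GFP+ cells.

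*Spon1*, F-spondin, a matrix protein first known from the floor plate (chromosome 7, 120909512 to 121186884, plus strand), fell in bone GFP+ (hi) cells. It had 12.6, 7.51 and 6.30 CPM in GFP+ (hi) cells, against 72.7, 76.6 and 88.1 CPM in GFP- cells, an 8.92-fold difference (log2 fold change -3.16, SE 0.26, adjusted p = 1.7e-05). Chip libraries held few *Spon1* counts, with 50, 58 and 79 counts in GFP+ (hi) libraries and 10, 38 and 72 counts in GFP- libraries. In CPM the groups lay apart, at 4.73, 4.81 and 6.29 in GFP+ (hi) cells and 0.870, 2.41 and 3.34 in GFP- cells. The log2 fold change of 1.22 (SE 0.42, adjusted p = 0.054) was not called, and it was called with the replicate number as a block (1.31, SE 0.32, adjusted p = 0.0218). ESC-OB GFP+ cells had 99.3, 95.8 and 124 CPM, against 0.552, 0.666 and 0.209 CPM in ESC (log2 fold change 7.57, SE 0.29, adjusted p = 1.2e-08).

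*Spon2*, mindin, which binds integrins and takes part in innate immunity (chromosome 5, 33556167 to 33560887, minus strand), had the same signs as *Spon1* in every source. It had 24.5, 31.1 and 47.1 CPM in bone GFP+ (hi) cells, against 191, 234 and 225 CPM in bone GFP- cells, and fell 6.32-fold (log2 fold change -2.66, SE 0.24, adjusted p = 2.8e-05). In bone chips it had 22.1, 25.3 and 14.7 CPM in GFP+ (hi) cells, against 10.6, 6.85 and 5.61 CPM in GFP- cells. That is a 2.72-fold rise (log2 fold change 1.44, SE 0.29, adjusted p = 0.0070). In ESC-OB GFP+ cells it had 62.0, 33.6 and 45.7 CPM, against 1.29, 1.05 and 1.05 CPM in ESC (log2 fold change 5.40, SE 0.33, adjusted p = 1.3e-07). In ESC-OB GFP+ cells *Spon1* was 36.8 to 50.9% of the spondin sum per kilobase. In the other populations *Spon1* was at most 18.7% of it.

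Whether the GFP effect differed between bone chips and bone was tested by the interaction of source and GFP in 1 fit of 12 libraries. It differed for 9 of the 10 genes, against 30.3% of all 13574 genes tested. For 6 members the effect in chips was above that in bone (15.6% of all genes), and for 3 it was below (14.7%). For *Spon1*, *Spon2*, *Fn1* and *Postn* the estimated effect was positive in chips and negative in bone, of which *Spon1* in chips and *Postn* in bone were not called on their own. The largest difference was that of *Spon1*, 4.34 on the log2 scale (chips minus bone, SE 0.49, adjusted p = 3.6e-05). For *Thbs2* the difference was -3.31 (SE 0.36, adjusted p = 2.6e-05). For *Tnc*, higher in both, it was 1.05 (SE 0.28, adjusted p = 0.0129), and with 1 bone GFP+ (hi) library left, and the spread taken from the other groups, it was 0.78 (adjusted p = 0.126). *Thbs4* had a difference of -0.67 (SE 0.47, adjusted p = 0.308). The GFP- populations of the 2 sources also differ in kind: chondrocyte markers summed to 3945 to 7551 CPM in bone chip GFP- cells and 94710 to 193600 CPM in bone GFP- cells, each on the scale of its own source. The part of this in the differences was not tested. Sex-linked transcripts also differed between the 2 sources. Bone chip libraries had 3068 to 11573 counts of the X-linked *Xist* and 0 to 1 of *Ddx3y*. Bone GFP- libraries had 0 to 10 counts of *Xist*, and bone GFP+ (hi) libraries 1, 2 and 3 had 741, 22 and 348. Source and sex of the animals therefore cannot be told apart in full, in this test or in levels across the 2 sources.

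**Figure D3:**
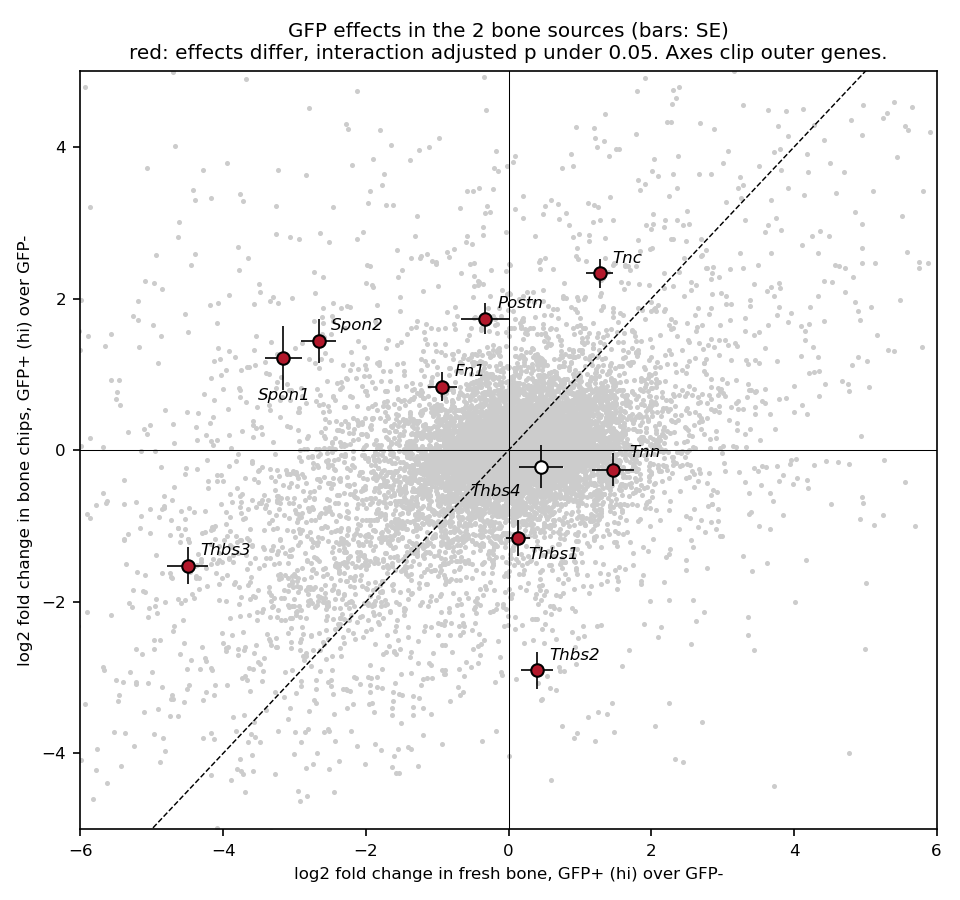
Log2 fold change of GFP+ (hi) over GFP- in bone chips (y axis) against fresh bone (x axis), with the 10 genes as large points with SE bars and all other genes tested in both as grey points. The dashed line marks equal effects, and red points have an interaction adjusted p under 0.05. *Spon1*, *Spon2*, *Fn1* and *Postn* lie left of 0 in bone and above 0 in chips, and *Thbs4* is the open point.

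Scaling mattered most in bone, where *Col1a1* alone took 36.2 to 37.5% of the counts of GFP+ (hi) libraries, against 0.805 to 1.59% of GFP- libraries. With total counts in place of TMM factors, the median log2 fold change of all genes tested moved to -1.06 in bone and -0.60 in bone chips, and the share of higher calls among all calls fell to 8.21% in bone, against 46.9% with TMM, and 11.8% in bone chips, against 46.8% with TMM. On that scale 0 members were called higher (5.54% of all genes tested) and 7 lower (62% of all genes) in bone, and 3 higher (8.24%) and 5 lower (61.7%) in bone chips.

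**Figure D4:**
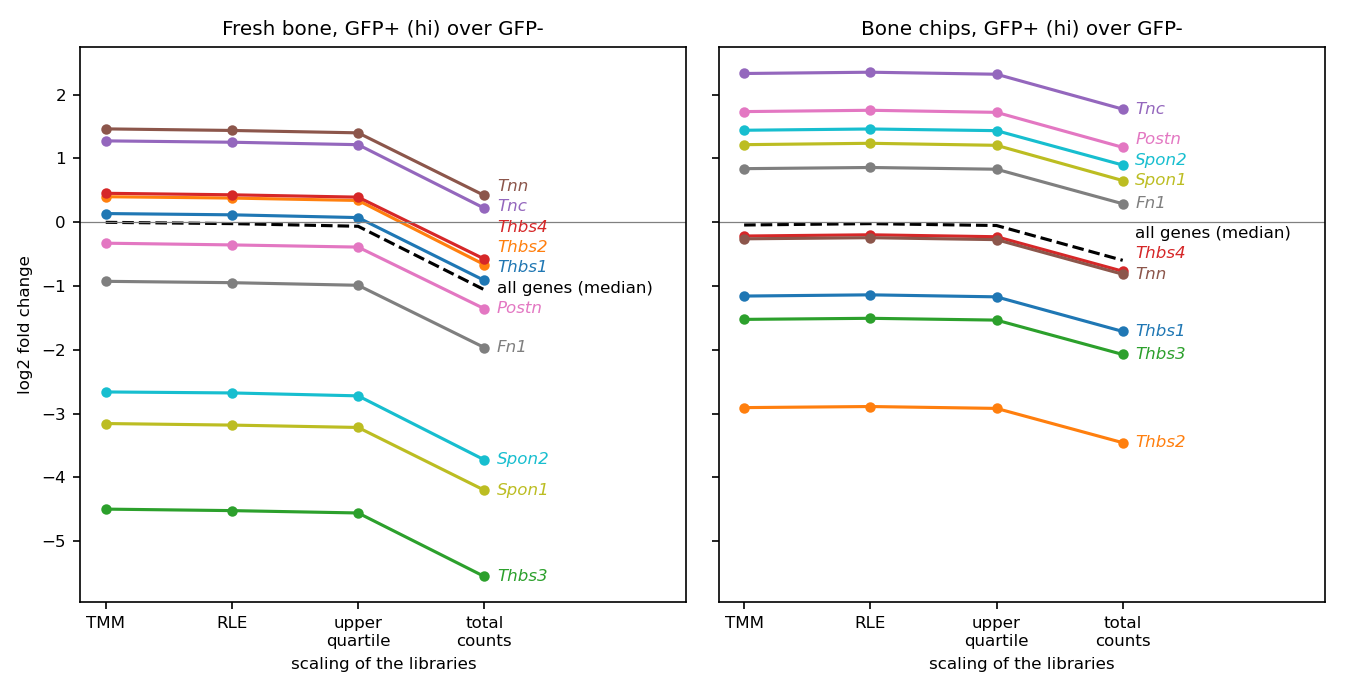
Log2 fold change of each gene, GFP+ (hi) over GFP- (y axis), in fresh bone (left) and bone chips (right) under 4 scalings of the libraries (x axis), with the median of all genes tested as a dashed line. The lines run in parallel, and on total counts the median is -1.06 in bone and -0.60 in bone chips.

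To set levels of the 6 populations beside each other, the 18 libraries were also scaled together and CPM were divided by transcript length in kilobases. *Fn1* was highest in bone chip GFP+ (hi) cells, at 4663 ± 627 CPM per kb, followed by bone chip GFP- cells at 2616 ± 413 (SD, n = 3 each). Its order went on with bone GFP- (394 ± 96.6), bone GFP+ (hi) (227 ± 21.5), ESC (140.1 ± 17.1) and ESC-OB GFP+ cells (71.2 ± 13.1). No neighbours in that order overlapped on this scale, but the order depended on it. As shares of all counts, *Fn1* was higher in ESC (0.164 to 0.212%) than in bone GFP+ (hi) cells (0.0757 to 0.0923%). The shares in bone GFP+ (hi) cells overlapped those in ESC-OB GFP+ cells (0.0859 to 0.122%). *Tnc* ran in the order bone chip GFP+ (hi) (495 ± 104), bone chip GFP- (98.7 ± 9.80), bone GFP+ (hi) (54.1 ± 10.1), bone GFP- (20.4 ± 2.67), ESC-OB GFP+ (5.76 ± 0.951) and ESC (0.0183 ± 0.0186), also without overlap of neighbours on this scale. As shares of all counts, *Tnc* in bone GFP+ (hi) (0.0132 to 0.0199%) and bone GFP- cells (0.0121 to 0.0165%) overlapped. *Thbs3* was highest in bone GFP- cells (193 ± 5.53 CPM per kb), and bone chip GFP- (3.14 ± 0.889) and ESC-OB GFP+ cells (3.09 ± 0.437) overlapped. *Thbs2* was highest in bone chip GFP- cells (383 ± 94.7), while bone GFP+ (hi) (74.1 ± 20.9), bone GFP- (51.3 ± 6.05) and bone chip GFP+ (hi) cells (50.8 ± 10.7) overlapped in turn. *Thbs1* was highest in bone chip GFP- cells (1236 ± 222), *Tnn* in bone chip GFP- (117 ± 27.8) and bone chip GFP+ (hi) cells (97.0 ± 19.7), which overlapped, and *Postn* in bone chip GFP+ (hi) cells (217 ± 55.8). *Spon1* and *Spon2* were highest in bone GFP- cells, at 18.6 ± 1.91 and 139.9 ± 13.5 CPM per kb. *Thbs4* was highest in bone GFP+ (hi) cells (72.8 ± 24.6), which overlapped bone GFP- cells (48.6 ± 18.9).

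**Figure D5:**
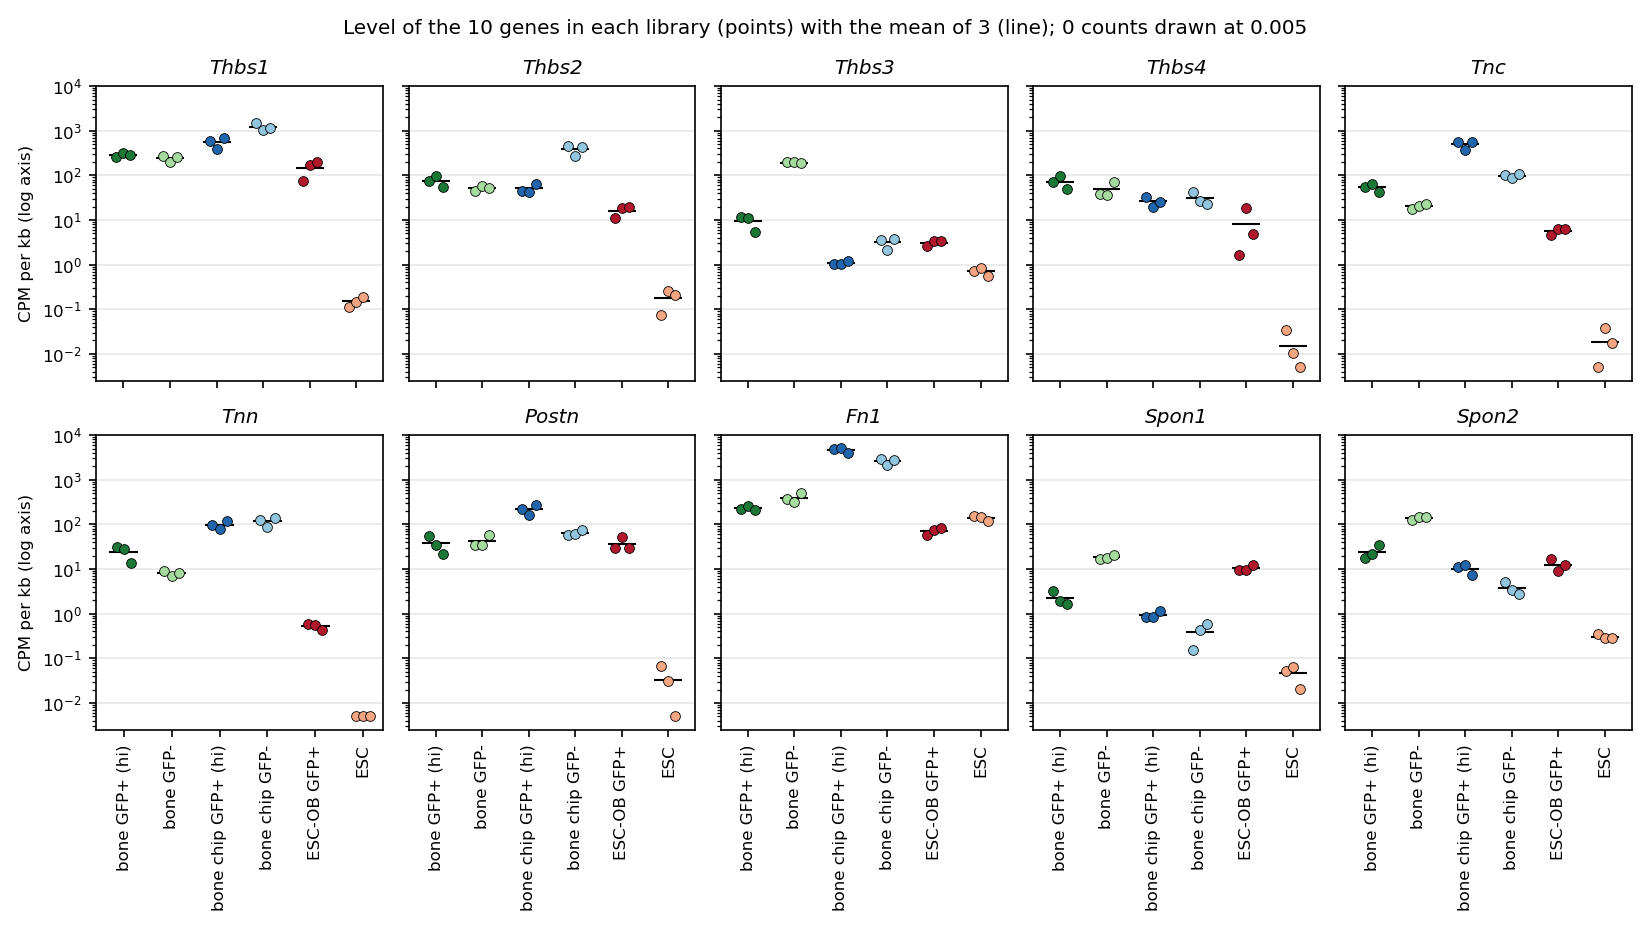
Level of each gene (panel) in CPM per kb of transcript on a log axis (y), for the 6 populations (x), from 18 libraries scaled together, with 1 point per library and a line at the mean of the 3 libraries of a population. *Fn1* reaches 3939 to 5033 CPM per kb in bone chip GFP+ (hi) libraries, *Thbs3* stands out in bone GFP- libraries (187 to 197), and libraries with 0 counts are drawn at the bottom.

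The genes whose level over the 6 populations was most like that of a member were sought among 10842 genes, by the root mean square difference of centred log2 levels, as a description over 6 points that share libraries and depth. The nearest to *Thbs4* was *Cpq* (0.37), to *Thbs3* *Nfatc2* (0.41), to *Thbs2* *Olfml2b* (0.47), to *Thbs1* *Aqp1* (0.48), to *Spon1* *Galnt18* (0.50), to *Spon2* *Efna1* (0.55), to *Postn* *Tgfb3* (0.71) and to *Tnc* *Cd44* (0.87). The nearest gene to *Tnn* was *Tnc* (1.11), the 1 case in which a member was the nearest to another. Each is the smallest of 10842 distances, so closeness follows from the search. The members' own ranges from lowest to highest population, another measure, ran up to 14.95 for *Tnc* and down to 6.04 for *Fn1* on the log2 scale.

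Genes that work with these proteins were counted in 4 lists. With TMM factors, 19.5% of all genes tested rose and 22.1% fell in bone. In bone chips 20.4% rose and 23.1% fell, and in ESC-OB 43% rose and 34.7% fell. Their counts on total counts stand beside a fall of 62% of all genes tested in bone and 61.7% in bone chips on that scale, and a rise of 5.54% in bone and 8.24% in bone chips. The medians of all genes, given with the receptors, apply to every list. Of 15 receptors, 14 were tested in bone, where 4 rose and 6 fell, or 1 and 9 on total counts (median log2 fold change -0.16, all genes -0.0013). In bone chips 5 of 15 rose and 4 fell, or 2 and 6 on total counts (median -0.15, all genes -0.043), and in ESC-OB 12 of 15 rose and 0 fell (median 2.44, all genes 0.22). *Itga9*, an integrin chain that binds tenascin C, fell in bone (1.04 CPM in GFP+ (hi) and 7.62 CPM in GFP- cells) and in bone chips (2.07 CPM in GFP+ (hi) and 9.59 CPM in GFP- cells). *Itga8*, an integrin chain for fibronectin and tenascin, fell in bone (0.256 CPM in GFP+ (hi) and 5.57 CPM in GFP- cells). It also fell in bone chips (0.226 CPM in GFP+ (hi) and 0.748 CPM in GFP- cells). There 1 CPM stood for 10.57 to 12.55 counts in GFP+ (hi) libraries, so that level of *Itga8* rested on few counts. In ESC-OB GFP+ cells *Itga8* averaged 270.0 CPM, against 0.748 CPM in ESC, and *Cd47*, a thrombospondin receptor, 124 CPM, against 2.33 CPM in ESC. *Cd36*, another thrombospondin receptor, had 2527 counts in ESC-OB GFP+ cells and 0 in ESC, at least 314-fold higher against a floor of 3 counts over the group.
Of 12 matrix partners, 7 rose and 3 fell in bone, or 6 and 5 on total counts (median 1.95), 4 rose and 6 fell in bone chips, or 4 and 8 on total counts (median -0.72), and 12 rose in ESC-OB (median 4.92). *Lox*, which cross-links collagen, averaged 2253 CPM in bone GFP+ (hi) cells and 47.9 CPM in bone GFP- cells. The fibrillin *Fbn2* rose in bone (53.9 CPM in GFP+ (hi), 4.09 CPM in GFP- cells) and fell in bone chips (6.34 CPM in GFP+ (hi), 137 CPM in GFP- cells).
Of 8 TGF-β responsive genes, 0 rose and 6 fell in bone, or 0 and 8 on total counts (median -1.35), 2 rose and 3 fell in bone chips, or 2 and 6 on total counts (median -0.40), and 6 rose and 0 fell in ESC-OB (median 2.70). *Ctgf*, a matricellular growth factor modulator, fell in bone (235 CPM in GFP+ (hi), 1194 CPM in GFP- cells) and rose in bone chips (750.0 CPM in GFP+ (hi), 205 CPM in GFP- cells). *Tgfbi*, a periostin relative with the same fasciclin domains, fell in bone (16.6 CPM in GFP+ (hi), 214 CPM in GFP- cells) and in bone chips (9.09 CPM in GFP+ (hi), 103 CPM in GFP- cells).
Of 9 family relatives, 5 were tested in bone, where 4 fell (5 on total counts) and 0 rose (median -3.70). *Tgfbi* is counted here and among the TGF-β responsive genes, and its value in bone is that median. In bone chips 2 of 7 rose and 3 fell (median -0.10), and in ESC-OB 5 of 7 rose and 0 fell (median 5.15). *Tnxb*, tenascin X, fell in bone (2.10 CPM in GFP+ (hi), 11.4 CPM in GFP- cells) and in bone chips (1.02 CPM in GFP+ (hi), 14.8 CPM in GFP- cells), and rose in ESC-OB (8.51 CPM in GFP+ cells, 0.117 CPM in ESC).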

How the data were processed

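RNA of 18 libraries, 3 for each of 6 mouse cell populations, was enriched for poly-A and sequenced from both ends by the authors, who aligned the reads to NCBI Build 37 (mm9) with STAR 2.4.2a and used DESeq2 (R 3.2.2) on RefSeq genes. The deposited tables, 1 per source, hold raw counts as whole numbers per gene. The counting tool, its strand setting and the treatment of reads with several alignments are not given in the sources used here. Every value column was mapped to a sample by its name.

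Sources were fitted separately in edgeR 4.0.16 (R 4.3.3): filterByExpr (minimum count 10), TMM, glmQLFit and glmQLFTest without covariates, and Benjamini-Hochberg adjustment over all genes tested (called under 0.05). SE is the log2 fold change over the root of the F statistic. The interaction was fitted over 12 libraries. Levels across populations used TMM over 18 libraries and the longest coding transcript of GENCODE vM1, which also gave the positions. Promoters are RefSeq windows of GRCm38.p6, and coordinates of the 2 builds were not mixed. The fits were also run on simulated counts, whose outcome is not reported here. Those counts had a fixed dispersion and no shift in composition like that of *Col1a1*, so they do not bear on the scaling.

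The 10 genes and all lists were chosen with earlier results of these data known. The genes named are the 10, up to 4 called members of each related list with the largest changes in a source, and the genes nearest in pattern, of which 1 is not reported here. *Mtx1* was added because it overlaps *Thbs3*.

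Deviations from the group means correlated between equally numbered bone chip libraries (0.158, 0.329 and 0.397), so the numbers were taken to pair the samples there. In bone and ESC none reached 0.1. The fits reported have no block, so the SE and adjusted p given for bone chips are those of unpaired fits. With the block the SE of every member in bone chips was smaller, from 0.22 to 0.090 for *Tnn* and from 0.195 to 0.189 for *Fn1*.

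Alternatives were RLE, upper-quartile and no scaling factors, no filter, a filter at 1 CPM, DESeq2 1.42.0, a log2 threshold of 1 (glmTreat), a replicate block, libraries thinned to the smallest total, a joint fit of 18 libraries, and leaving out each library. Leaving out the 2 bone GFP+ (hi) libraries low in chromosome Y transcripts and summing ESC replicates 2 and 3 were chosen after seeing the data. The first leaves 1 library in its group, which is assumed to vary like the others. Plots used matplotlib 3.10.9 and pandas 2.3.3 (Python 3.11.15).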

Additional observations from a re-analysis of the deposited data

Results flagged for a closer look

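For 9 of the 10 genes the GFP effect differed between bone chips and fresh bone by the interaction test. The differences, as the log2 fold change in bone chips minus that in bone, were 4.34 for *Spon1*, 4.11 for *Spon2*, 2.97 for *Thbs3*, 2.06 for *Postn*, 1.77 for *Fn1* and 1.05 for *Tnc*, and -1.30 for *Thbs1*, -1.73 for *Tnn* and -3.31 for *Thbs2*. They were called for 8 or 9 of the genes under the alternatives run. *Thbs3* fell in both sources, by 1.52 on the log2 scale in bone chips and by 4.50 in bone, and *Tnc* rose in both.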

How the results depend on the processing

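On total counts, 0 members were higher and 7 lower in bone (62% of all genes tested were lower on that scale), 5 were lower in bone chips (61.7% of all genes), with calls gained for *Thbs4* (-0.77) and *Tnn* (-0.81), and the log2 fold changes in bone turned to -0.91 for *Thbs1*, -0.66 for *Thbs2* and -0.58 for *Thbs4*. By construction this setting leaves out the TMM factors, which were 0.684 to 0.712 in bone GFP+ (hi) libraries and 1.32 to 1.60 in bone GFP- libraries. Against a log2 threshold of 1, 0 members were higher and 3 lower in bone, and 2 were higher and 1 lower in bone chips. In ESC-OB 9 were higher and 0 lower. The shares of all genes at this threshold are not given here. Leaving out each library gave 2 to 3 members higher and 4 lower in bone, 3 to 5 higher and 3 lower in bone chips, 9 higher and 1 lower in ESC-OB, and 9 with a different effect between bone chips and bone. *Thbs4* in bone chips ran over -0.42 to 0.13 when each library was left out, with the 0.13 without bone chip GFP- replicate 1. Besides the block, the call of *Spon1* in bone chips was gained with RLE factors (adjusted p = 0.0496), DESeq2 (0.0217) and the joint fit (0.0144), and without bone chip GFP- replicate 1 (0.0436) or 3 (0.0222). The replicate block raised the members called higher in bone chips to 5 and changed no other member's call in any comparison. The cause of these changes was not tested. Over the alternatives, 158 of 170 values of single genes kept direction and side of the threshold in bone. For bone chips these were 145 of 160, and for ESC-OB 169 of 170. Depth limits *Spon1* and *Thbs3* in bone chips and the members with under 10 counts per ESC library.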
